A study of Mus musculus with 2 samples.

Results

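The report covers 38 genes of inflammation (chemokines, cytokines and inflammatory effectors) in ureters of newborn mice cultured with cyclopamine, which blocks the SHH signal transducer SMO. The genes were taken by name from both arrays, each read through its brightest probe, and stand among 30011 named genes on the arrays. The list was chosen with the ratios of these arrays in view, so the ratios of its members are given as a description and carry no test. Of the 38 members, 36 were measured and well above background in all 4 channels. Ccl17 was above background on replicate 1 alone, and Ccl20, the ligand of CCR6, on neither array.

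Ureters of wildtype NMRI mice at P0 were explanted onto transwell membranes and kept for 18 h in medium with serum. The treated groups received 10 µM cyclopamine and the control groups received DMF at a dilution of 1 in 1000 per the labels, while the methods name ethanol as the solvent of cyclopamine. Each of the 2 arrays set a cyclopamine pool against a control pool of the same sex. Replicate 1 held female pools with the control in green and cyclopamine in red, and replicate 2 held male pools with the dyes swapped. Sex, dye orientation and pool therefore cannot be told apart. A source name in the labels gives IWP-2, an inhibitor of WNT secretion, for the treated channel, whereas title, treatment entry and protocol give cyclopamine. Pools of whole explants hold epithelium, smooth muscle, fibroblasts and resident leukocytes, and fewer cells of a type cannot be told apart from less RNA per cell.

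Chemokines are small secreted proteins that guide leukocytes along gradients. The CXC chemokines with an ELR motif attract neutrophils through CXCR1 and CXCR2, CXCL9, CXCL10 and CXCL11 attract T cells through CXCR3, and most CC chemokines attract monocytes, eosinophils or T cells. IL1 and TNF activate the transcription factor NF-κB, which drives many chemokine genes and also the genes of its own inhibitors, and stromal and epithelial cells express many of these genes when a tissue is dissected and cultured.

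RefSeq (GRCm38.p6) gave the sequence around the start site, 250 bases before and 50 after, for 29 of the 38 members. The last 150 bases before the start are shown for 4 CXC chemokine genes that were higher on both arrays and for Il6, which was not, each on the strand of its gene. The capitals mark matches to the κB consensus, the binding motif of NF-κB. Il1a is added as the IL1 gene with the largest ratio, with the AP-1 motif TGANTCA in capitals.
Cxcl3 (chr5:90785951-90786100, + strand): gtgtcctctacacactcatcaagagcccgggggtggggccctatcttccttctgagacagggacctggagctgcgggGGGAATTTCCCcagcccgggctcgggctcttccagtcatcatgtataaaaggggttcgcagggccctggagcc
Cxcl1 (chr5:90891095-90891244, + strand): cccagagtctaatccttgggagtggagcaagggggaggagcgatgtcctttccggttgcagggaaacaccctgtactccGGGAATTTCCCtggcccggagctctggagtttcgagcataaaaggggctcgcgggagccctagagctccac
Cxcl2 (chr5:90903749-90903898, + strand): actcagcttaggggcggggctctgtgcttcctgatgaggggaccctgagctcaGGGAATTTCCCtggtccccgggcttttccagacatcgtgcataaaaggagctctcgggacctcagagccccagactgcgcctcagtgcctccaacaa
Cxcl10 (chr5:92348890-92349039, - strand): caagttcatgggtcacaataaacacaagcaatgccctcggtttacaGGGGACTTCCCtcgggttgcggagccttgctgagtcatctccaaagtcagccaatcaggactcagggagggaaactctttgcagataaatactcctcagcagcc
Il6 (chr5:30012964-30013113, + strand): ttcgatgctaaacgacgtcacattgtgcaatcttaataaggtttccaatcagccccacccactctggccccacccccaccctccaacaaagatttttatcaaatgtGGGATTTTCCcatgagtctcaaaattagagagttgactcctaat
Il1a (chr2:129309973-129310122, - strand): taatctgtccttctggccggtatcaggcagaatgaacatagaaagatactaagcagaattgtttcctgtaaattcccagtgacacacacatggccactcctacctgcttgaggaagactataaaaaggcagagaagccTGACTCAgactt
The matches of the clustered genes Cxcl3, Cxcl1 and Cxcl2 had the same letters. Each consisted of a pair of overlapping matches on opposite strands, the first of them starting 73, 71 and 97 bases before the start site. The κB consensus was found in 11 of the 29 members (37.9%) and in 8.46% of all 32851 start site windows, searched on both strands. The 11 were Cxcl1, Cxcl2, Cxcl3, Cxcl10, Ccl20, Il6, Lif, Csf1, Tnfaip2, Tnfaip3 and Nfkbia. Of the 10 measured, 6 were higher on both arrays, 0 were lower on both and 4 were split. Among all measured members the shares were 47.2%, 19.4% and 33.3%. TGANTCA stood in 8 members (27.6%, against 7.81% of all windows), and the C/EBP motif TTGCNNAA in 7 (24.1% against 10.8%). Of the 8, all measured, 4 were higher on both arrays, 0 were lower on both and 4 were split. Of the 7, all measured, 1 was higher on both, 2 were lower on both and 4 were split. The list was chosen with its ratios known, so nothing is read from these counts. The GLI motif TGGGTGGTC stood in 0.253% of all windows and in no member's. The member shares count genes with a match in any of their windows, whereas the other shares count single windows. Of the 29 members 25 had 1 start site, so the 2 kinds of share are not quite alike. A match is a likeness of letters within these windows, and binding was not measured.

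The members leaned to higher values with cyclopamine, and the arrays differed for many of them. Among the 36 measured members 17 were higher on both arrays, 7 were lower on both and 12 were split. These are 47.2%, 19.4% and 33.3% of the members, beside 28.65%, 28.9% and 42.4% of all 19398 measured genes. The median log2 ratio of cyclopamine over control was 0.23 on replicate 1 and 0.19 on replicate 2, and 0.00 on each over all measured genes. Averaged over the arrays, the median member was at 0.17. The list was chosen on these values, so nothing is read from the difference.

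By the rule that both arrays show at least 1.5-fold in one and the same direction, 4 members were higher (Cxcl5, Il1a, Cxcl2 and Tnfaip2) and 1 was lower (Ccl11). Of all measured genes 0.536% were higher by that rule and 0.99% were lower. A further 5 members passed 1.5-fold in opposite directions (Cxcl9, Ccl5, Il6, Il11 and Csf2), as did 0.371% of all measured genes.

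**Figure D1:**
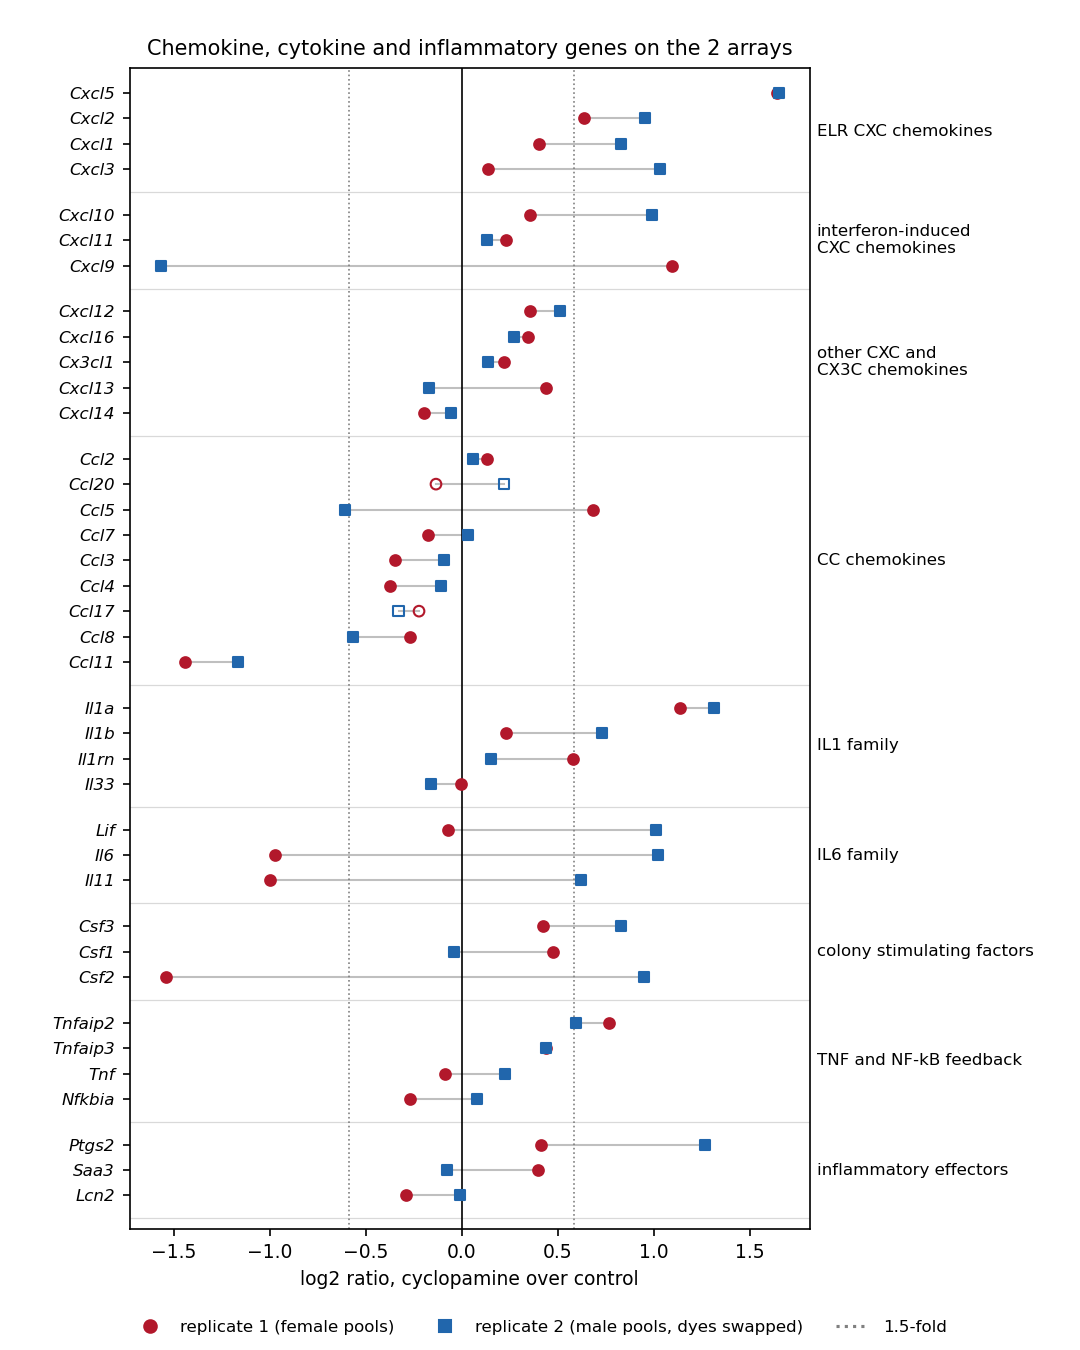
Log2 ratio of cyclopamine over control (x axis) for each of the 38 members, grouped by role, on replicate 1 (red circles) and replicate 2 (blue squares). Open symbols are the 2 members not measured, and dotted lines mark 1.5-fold. The 4 ELR chemokine genes lie to the right of 0 on both arrays, Ccl11 lies to the left, and Cxcl9, Csf2, Il6 and Il11 span 0.

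The ELR CXC chemokine genes were higher on both arrays in 4 of 4 cases. They lie in a cluster on chromosome 5, in the order Cxcl5, Cxcl3, Cxcl1 and Cxcl2, with probes 26.2, 105.2 and 12.7 kb apart. Cxcl5 had the largest ratio of the list. Its probe (mm9, chromosome 5, 91190490 to 91190549) gave intensities of 1301 (control) and 4062 (cyclopamine) on replicate 1, and of 339 and 1065 on replicate 2. The cyclopamine channel was the brighter by 3.12-fold and 3.14-fold, and the mean log2 ratio was 1.65 ± 0.01 (SD, n = 2).

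Cxcl2 (91334534 to 91334593) went from 283 to 439 on replicate 1 and from 50.7 to 98.2 on replicate 2, which averaged to a log2 ratio of 0.79 ± 0.23 (SD, n = 2). Cxcl1 (91321845 to 91321904) had intensities of 556 and 735 on replicate 1 and of 111 and 197 on replicate 2. Its log2 ratios were 0.40 and 0.83, with a mean of 0.62 ± 0.30 (SD, n = 2), so the limit was missed on replicate 1. The gene closest to the limit on the mean, Cxcl3, had log2 ratios of 0.13 and 1.03 and a mean of 0.58. Leaving Cxcl5 aside, these genes had the larger ratio on replicate 2, and for Cxcl3 the difference lay almost entirely there.

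The receptors of these ligands were hardly seen. Cxcr1 was not well above background in any channel. Cxcr2 had at most 0.5 of its spots above background, in the cyclopamine channel of replicate 1.

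The interferon-induced chemokine genes, which lie next to each other on chromosome 5, did not move together. Cxcl10 (92775781 to 92775840) had intensities of 5776 and 7388 on replicate 1 and of 764 and 1518 on replicate 2. Its log2 ratios were 0.36 and 0.99, with a mean of 0.67 ± 0.45 (SD, n = 2). A second, dimmer Cxcl10 probe gave -0.13 and 0.68.

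Cxcl9 (92752796 to 92752855) went from 910 to 1946 on replicate 1 and from 176 to 59.4 on replicate 2. Its log2 ratios were 1.10 and -1.57, and a second Cxcl9 probe gave 1.07 and -1.72. Both probes thus showed the same split between the arrays. Cxcl11 was bright, at 14.6 and 17.1 times the 75th percentile of the channel on replicate 1 and 31.0 and 34.1 times on replicate 2 (control, then cyclopamine). Its log2 ratios were 0.23 and 0.13 by that probe and -0.11 and 0.08 by the other, so the probes differed in sign on the mean.

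Among the other CXC and CX3C chemokine genes no ratio passed 1.5-fold on either array. Cxcl12, the stromal ligand of CXCR4, had log2 ratios of 0.35 and 0.51, and its other probe gave 0.23 and 0.26. Cxcl16 had 0.34 and 0.27 and the membrane-bound chemokine gene Cx3cl1 had 0.22 and 0.14. Cxcl14, an epithelial chemokine gene, had -0.20 and -0.06. Cxcl13, the B cell attractant, was split at 0.44 and -0.17.

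The CC chemokine genes had a median log2 ratio of -0.27 on replicate 1 and -0.11 on replicate 2. Of the 7 measured, 4 were lower on both arrays, Ccl2 alone was higher on both and 2 were split. These are mostly short genes, and all measured genes under 10 kb had a median of -0.23 on replicate 1. With the trend along gene length removed, 2 of the 7 were lower on both arrays (Ccl11, and Ccl4 with a length of 16060 bp). Of the others 2 were higher on both and 3 were split, and the median of the 7 on replicate 1 was 0.10. Ccl11, which encodes eotaxin, the eosinophil attractant that binds CCR3, was the one past the limit. Its probe (mm9, chromosome 11, 81876072 to 81876131) went from 5661 to 2088 on replicate 1 and from 700 to 312 on replicate 2. Each cyclopamine channel was below both control channels once scaled to the 75th percentile of its channel (0.624 and 0.499 against 1.70 and 1.12). The mean log2 ratio was -1.30 ± 0.19 (SD, n = 2). The paper also lists Ccl11 among the top transcripts reduced with cyclopamine, from these same arrays.

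The neighbours of Ccl11 on chromosome 11 did not share its size of change. The probe of Ccl7 lies 15.4 kb before it and had log2 ratios of -0.18 and 0.03, and that of Ccl8 lies 54.0 kb after it and had -0.27 and -0.57. Ccl2, the monocyte attractant, lies 10.0 kb before Ccl7 and had 0.13 and 0.06. Ccl3 and Ccl4, the macrophage inflammatory proteins, had log2 ratios of -0.35 and -0.09 for Ccl3 and of -0.38 and -0.11 for Ccl4. With the length trend removed Ccl3 had 0.02 and -0.04, and Ccl4 had -0.29 and -0.12. The lengths used were 1536 bp for Ccl3 and 16060 bp for Ccl4, so the 2 genes were corrected by unlike amounts. Whether Ccl4 stays lower after correction thus rests on that length.

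Ccl5, a T cell attractant, went from 1148 to 1847 on replicate 1 and from 222 to 146 on replicate 2, with log2 ratios of 0.69 and -0.61. It was split like Cxcl9. The control pools of both genes had similar scaled values across arrays, at 0.344 and 0.353 for Ccl5 and 0.273 and 0.280 for Cxcl9. The cyclopamine pools had 0.552 and 0.233 for Ccl5 and 0.581 and 0.0947 for Cxcl9. Each of these comparisons is between arrays, so dye and sex differ as well as the pool.

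**Figure D2:**
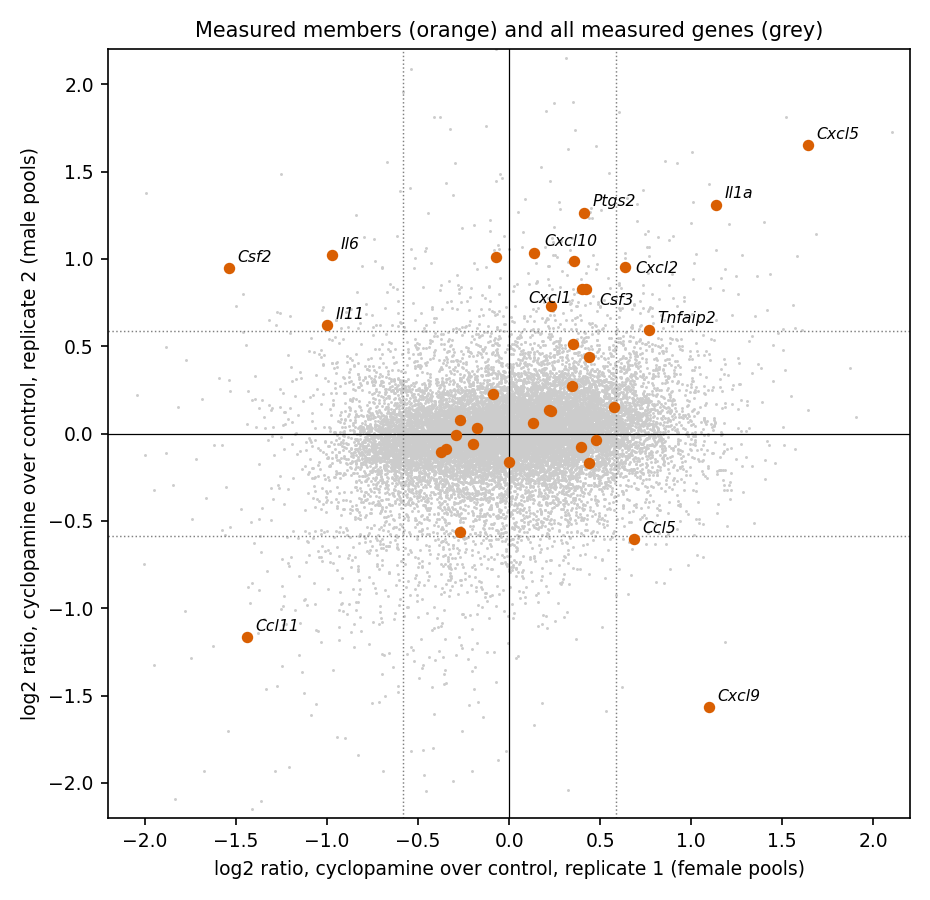
Log2 ratio of cyclopamine over control on replicate 1 (x axis) and replicate 2 (y axis) for the 36 measured members (orange) and all 19398 measured genes (grey). Dotted lines mark 1.5-fold, and 18 grey points lie outside the axes. Cxcl5, Il1a, Cxcl2 and Tnfaip2 lie in the upper right corner field, Ccl11 in the lower left, and Cxcl9, Ccl5, Csf2, Il6 and Il11 in the corner fields where the arrays disagree.

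Of the IL1 family, 3 of 4 genes were higher on both arrays. Il1a, which encodes the alarmin IL1α, had the second largest ratio above 0 on the list. Its probe (mm9, chromosome 2, 129125994 to 129126053) was dim, with 119 (control) and 261 (cyclopamine) on replicate 1 and 22.8 and 56.5 on replicate 2. The scaled values of both cyclopamine channels (0.0779 and 0.0901) lay above those of both controls (0.0355 and 0.0363). The mean log2 ratio was 1.22 ± 0.12 (SD, n = 2). Il1b, its neighbour at 64.4 kb, had log2 ratios of 0.23 and 0.73, and Il1rn, the gene of the receptor antagonist, had 0.58 and 0.15. Il33, an alarmin of stromal and epithelial nuclei, had 0.00 and -0.16.

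Of the IL6 family, Il6 and Il11 were lower on replicate 1 and higher on replicate 2. Il6 (chromosome 5, 30346367 to 30346426) went from 1715 to 874 on replicate 1 and from 209 to 423 on replicate 2. Its log2 ratios were -0.97 and 1.02. Il11, a stromal cytokine, went from 4449 to 2229 and from 530 to 815, with log2 ratios of -0.997 and 0.62. Lif had -0.07 and 1.01, so its difference lay on replicate 2 alone.

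The colony stimulating factors differed among themselves. Csf2, the gene of GM-CSF, was split like Il6, going from 318 to 109 on replicate 1 and from 30.5 to 58.8 on replicate 2 (log2 ratios -1.54 and 0.95). Csf3, which encodes the neutrophil growth factor G-CSF, was higher on both arrays. Its intensities were 175 and 234 on replicate 1 and 28.1 and 50.03 on replicate 2, and the mean log2 ratio was 0.63 ± 0.29 (SD, n = 2). Csf1, the macrophage growth factor gene, had log2 ratios of 0.48 and -0.04 by its brightest probe and of 0.22 and 0.05 and of 0.21 and 0.02 by its other probes.

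**Figure D3:**
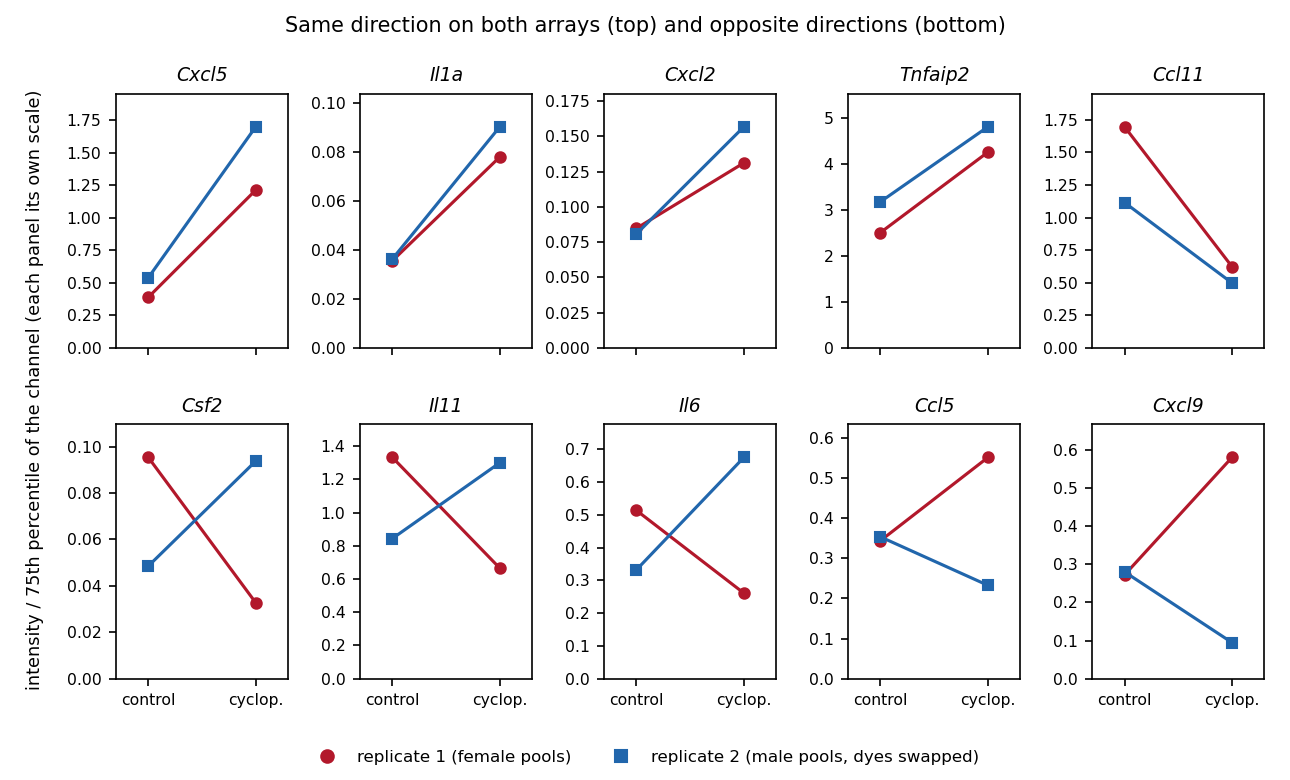
Intensity divided by the 75th percentile of the channel (y axis, linear and separate for each panel) in the control and the cyclopamine channel of replicate 1 (red circles) and replicate 2 (blue squares). In the upper row (Cxcl5, Il1a, Cxcl2, Tnfaip2, Ccl11) the lines of both arrays run the same way. In the lower row (Csf2, Il11, Il6, Ccl5, Cxcl9) they run opposite ways, and those of Csf2, Il11 and Il6 cross.

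Since the dyes were swapped, a split gene has the same sign of red over green on both arrays by construction. Red over green in log2 was 1.10 and 1.57 for Cxcl9 and 0.69 and 0.61 for Ccl5. It was -0.97 and -1.02 for Il6, -0.997 and -0.62 for Il11, and -1.54 and -0.95 for Csf2. The part of the dye in these splits was not tested. In the control pools, the scaled values of Csf2, Il6 and Il11 were higher on replicate 1 (0.0953, 0.514 and 1.33) than on replicate 2 (0.0485, 0.332 and 0.844). The control was green on replicate 1 and red on replicate 2, so dye, sex and pool cannot be told apart here either.

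Tnf itself had log2 ratios of -0.09 and 0.22. Tnfaip2, a gene induced by TNF, was higher on both arrays and was among the brighter members. It went from 8387 to 14270 on replicate 1 and from 1997 to 3016 on replicate 2 (mean log2 ratio 0.68 ± 0.12, SD, n = 2), and a second probe gave 0.70 and 0.42. With the mean of both probes Tnfaip2 no longer passed 1.5-fold on both arrays. Tnfaip3, which encodes the NF-κB inhibitor A20, had 0.44 on each array. Nfkbia, the gene of the inhibitor IκBα, had -0.27 and 0.08, and 0.04 and 0.11 with the length trend removed.

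Of the inflammatory effectors, Ptgs2, the gene of the prostaglandin synthase COX2, had intensities of 1977 and 2633 on replicate 1 and of 592 and 1423 on replicate 2. Its mean log2 ratio was 0.84 ± 0.60 (SD, n = 2), with 0.41 on replicate 1 and 1.27 on replicate 2. The neutrophil protein gene Lcn2 had -0.29 and -0.01, and the acute phase gene Saa3 had 0.40 and -0.08.

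To set the ligands beside the genes that receive and transmit their signals, further lists were read from the fit of limma over 25975 probes. As a check of the treatment, the SHH targets Gli1 and Ptch1 fell on both arrays (log2 ratios -1.83 and -2.09, limma adjusted p 1.76e-08, and -1.13 and -1.49, limma adjusted p 0.000248), as did Hhip (-0.31 and -1.99, limma adjusted p 0.00683). In that fit 0.438% of the measured genes were called higher and 0.866% lower, at an adjusted p under 0.05 and by the brightest probe. With 1 residual degree of freedom, the p-values measure the spread between these pools and rest mainly on the variance shared across probes.

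Of the 32 chemokine and cytokine receptor genes listed, 24 were measured, none was called higher and 1 was called lower. This was Ccr4, the receptor of CCL17, with log2 ratios of -0.36 and -1.43 (limma adjusted p 0.0382). It was dim, and was not well above background in the cyclopamine channel of replicate 2. The call was lost with normexp background correction (offset 50) followed by loess normalization, called normexp below. It was also lost with the series table values, with an intensity trend in the prior and with the 4 channels as separate samples. Next in size were Tnfrsf1b, a TNF receptor, with 0.79 and 0.17, and Ccr1, a receptor of CCL3 and CCL5, with 0.40 and 0.51, and neither was called. The receptor genes had a median log2 ratio of 0.12 on replicate 1 and -0.07 on replicate 2.

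All 25 genes of the NF-κB pathway were measured. limma called 0 of them, in this and in each other fit made, and 2 were higher and 0 lower at an unadjusted p under 0.05. Of the 25, 15 were higher on both arrays, 0 were lower on both and 10 were split, where 28.65%, 28.9% and 42.4% of all measured genes did so. The largest mean log2 ratios were those of Nfkbiz (0.30 and 0.69), an IκB protein that acts in the nucleus, the adaptor gene Traf6 (0.77 and 0.18) and Nfkb1 (0.51 and 0.15). Their medians on the arrays were 0.17 and 0.10.

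**Figure D4:**
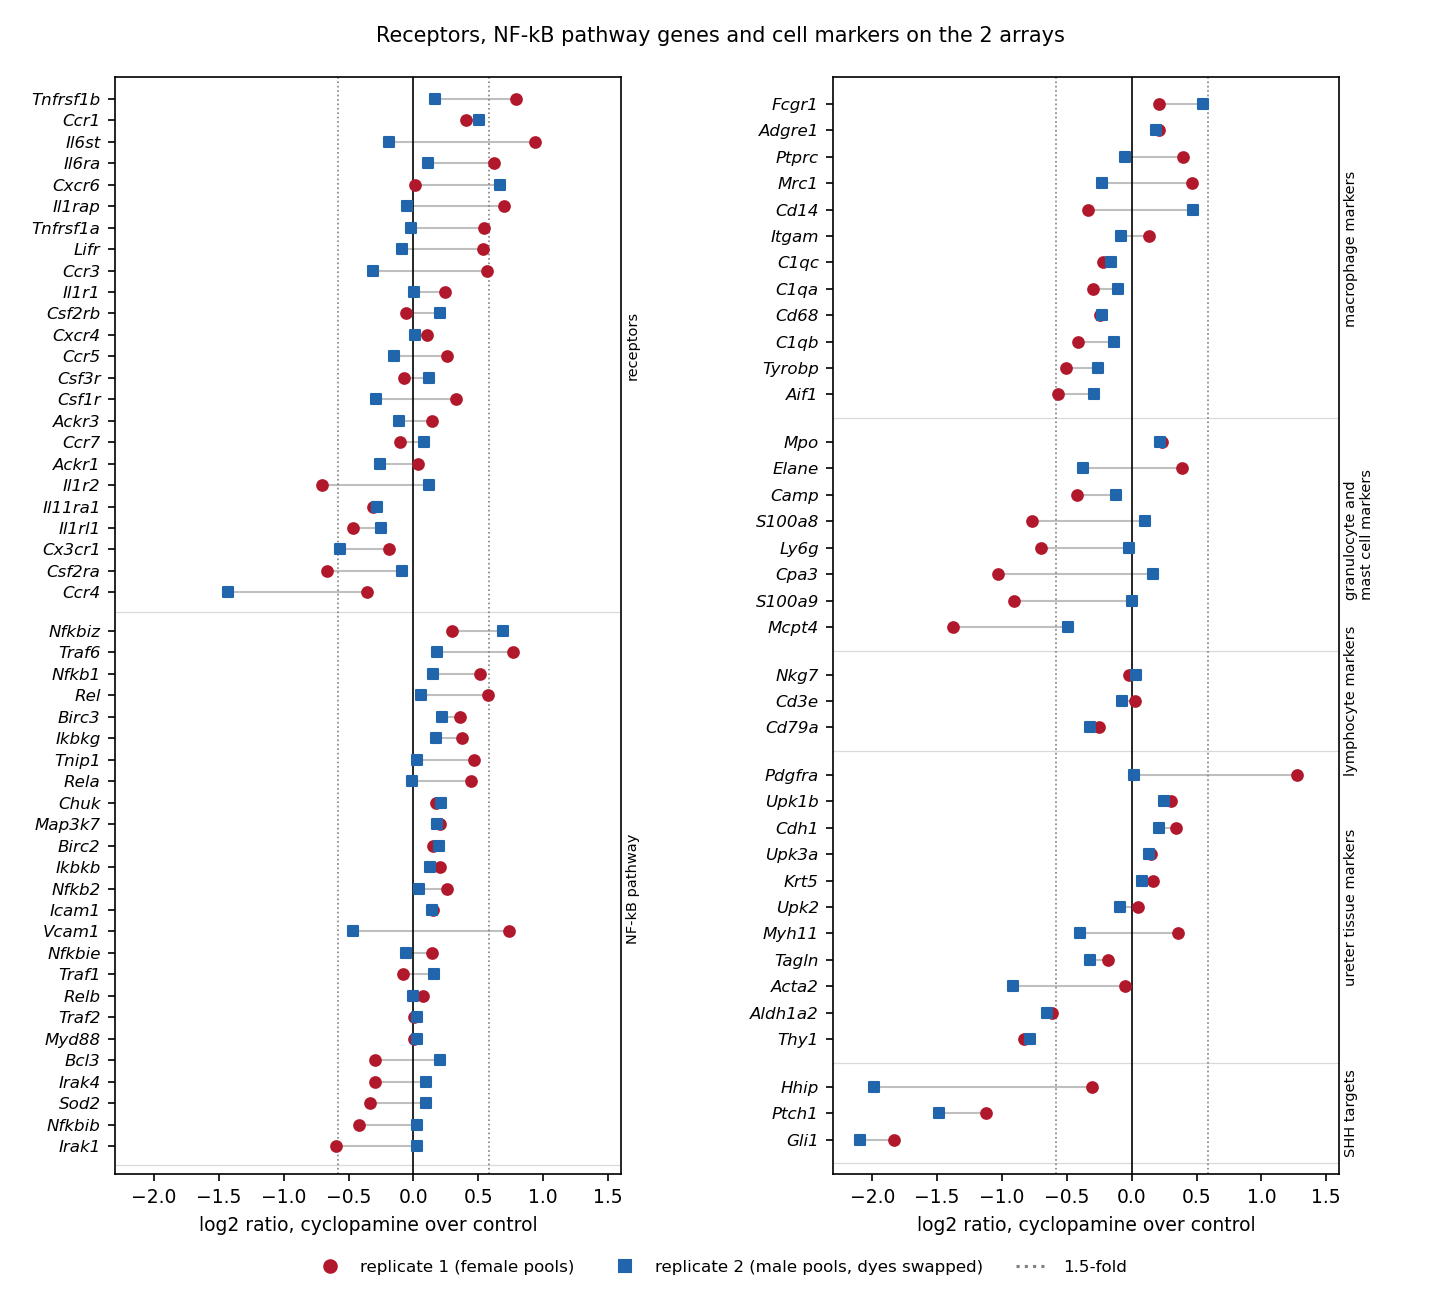
Log2 ratio of cyclopamine over control (x axis) on replicate 1 (red circles) and replicate 2 (blue squares) for the measured receptor and NF-κB pathway genes (left) and for cell markers and SHH targets (right), with dotted lines at 1.5-fold. The SHH targets lie far to the left on replicate 2, and 5 of the 8 granulocyte and mast cell markers (S100a8, S100a9, Ly6g, Cpa3 and Mcpt4) lie beyond the left dotted line on replicate 1 alone.

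Leukocyte markers were read because the explants hold such cells. All 12 macrophage markers were measured, and their summed level was 15.4 and 14.0 times the 75th percentile in control and cyclopamine on replicate 1 and 15.1 and 15.3 times on replicate 2. Of these, 6 were lower on both arrays and 2 were higher on both, and limma called none. The largest mean log2 ratios in size were those of Aif1 (-0.57 and -0.29), Tyrobp (-0.51 and -0.26) and Fcgr1 (0.21 and 0.55). Fcgr1 was dim on replicate 2, with intensities of 4.801 (control) and 7.035 (cyclopamine) and shares of 0.5 and 0.75 of spots above background.

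The granulocyte and mast cell markers, 8 of them measured, were lower as a sum with cyclopamine on replicate 1. Their summed level on replicate 1 was 3.82 with solvent and 2.42 with cyclopamine. On replicate 2 it was 1.84 and 1.83. The median log2 ratio was -0.73 on replicate 1 and -0.01 on replicate 2. Ratios on replicate 1 varied with gene length (Spearman's rho 0.44 over all measured genes with a length). The sums and medians of these markers were not corrected for that trend. Mcpt4, a mast cell protease gene, was the only one called (-1.38 and -0.49, limma adjusted p 0.0239). It was dim on replicate 2, with intensities of 11.95 (control) and 8.509 (cyclopamine). Its call was lost with normexp, the series table values and the 4 separate channels. Of the 8, 1 was higher on both arrays, 3 were lower on both and 4 were split. S100a9, a neutrophil gene, had -0.90 and 0.00, and the mast cell gene Cpa3 had -1.03 and 0.17. The neutrophil granule genes Mpo (0.24 and 0.22) and Elane (0.38 and -0.38) had ratios above 0 on replicate 1. The neutrophil granule gene Ngp and the eosinophil gene Siglecf were not measured. On replicate 1, Csf2, Il6, Il11 and Ccl11, among other members such as Ccl8, were lower in the same pool in which the marker sum was lower. On replicate 2, where the sum was 1.84 and 1.83, Ccl11 was lower as well (log2 ratio -1.16) and Csf2, Il6 and Il11 were higher. The part of the markers in those ratios was not tested.

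Of 6 lymphocyte markers 3 were measured (Cd3e, Cd79a and Nkg7), with mean log2 ratios from -0.29 to 0.01. Their summed level was 0.210 and 0.207 on replicate 1 and 0.355 and 0.346 on replicate 2. All 11 ureter tissue markers were measured, the urothelial genes Upk1b, Upk2 and Upk3a and the smooth muscle genes Acta2, Myh11 and Tagln among them. limma called none of the 11, and the largest mean log2 ratios in size were those of Thy1 (-0.83 and -0.79), Pdgfra (1.27 and 0.01) and Aldh1a2 (-0.62 and -0.65). By the rule of 1.5-fold on both arrays, 2 of the 11 were lower (Thy1 and Aldh1a2), beside 0.99% of all measured genes. The paper lists both genes as reduced with cyclopamine and saw the same by in situ hybridization.

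Most members are short genes, and on replicate 1 the ratio varied with gene length. The median genomic length of the measured members was 5360 bp, beside 21389 bp over the 16017 measured genes with a length. Across those genes Spearman's rho of length and log2 ratio was 0.44 on replicate 1 and 0.03 on replicate 2, given as a description, since genes of an array share its libraries. Across the members it was 0.17 and -0.03. The 4577 measured genes under 10 kb had a median log2 ratio of -0.23 on replicate 1 and of -0.03 on replicate 2. The 25 members under 10 kb had medians of 0.23 and 0.13. Ratios and levels of the receptor, NF-κB pathway and marker lists are given above without removal of the length trend.

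With the length trend removed, 8 members were higher by at least 1.5-fold on both arrays. Of the 16017 measured genes with a length, 87 were higher and 142 were lower by that rule. Csf3, Cxcl1, Cxcl10 and Ptgs2 joined the 4 named above, and the median over members, averaged over the arrays, was 0.28. Ccl11 was again the only member lower.

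**Figure D5:**
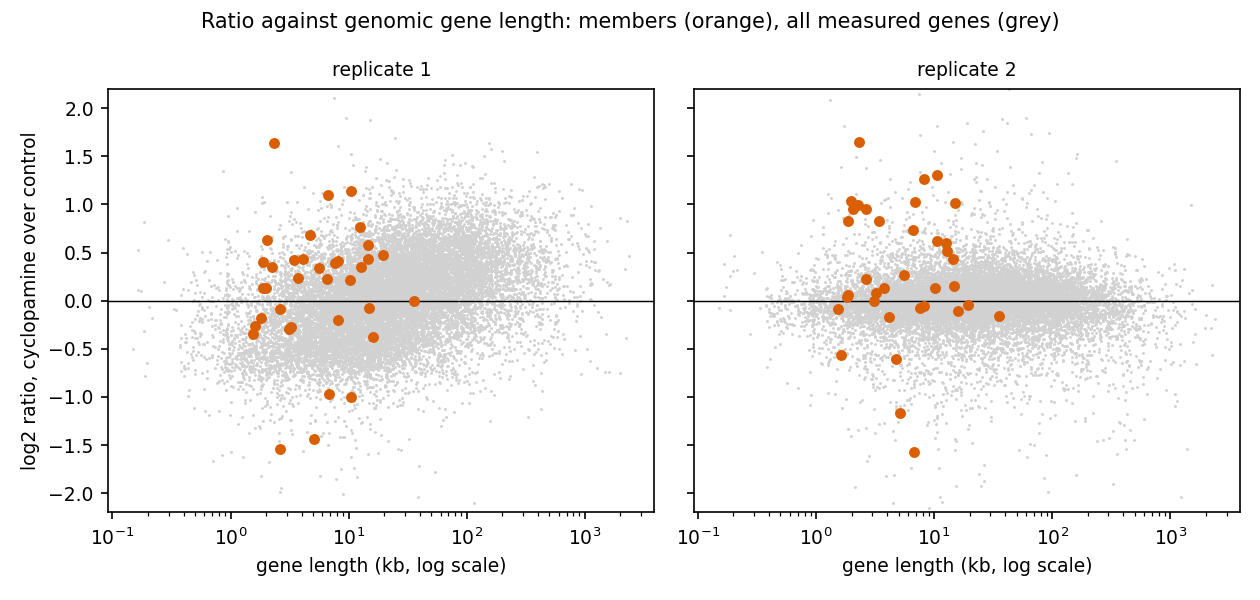
Log2 ratio of cyclopamine over control (y axis) against genomic gene length in kb (x axis, log scale) on replicate 1 (left) and replicate 2 (right), for the 36 measured members (orange) and all measured genes with a length (grey). The grey cloud rises with length on replicate 1 (rho 0.44) and is flat on replicate 2 (rho 0.03), and 5 and 15 grey points lie outside the y axes.

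The measured members ranged widely in signal. All processed intensities of replicate 2 were on a lower scale, with a 75th percentile of 628 in the control channel against 3338 on replicate 1. Under the intensity limit of the study, 100 in the control channel, applied to both arrays, Cxcl2 and Il1a were no longer counted as higher, and Cxcl5 and Tnfaip2 were. Agilent's processed signals were also replaced by ones corrected with normexp (offset 50) and loess normalization. Il1a then had log2 ratios of 0.89 and 0.76, and Cxcl2 had 0.57 and 0.68, so Cxcl2 no longer passed 1.5-fold on replicate 1. The offset, added to every signal, makes the ratios of dim probes smaller by construction.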

How the data were processed

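Gene expression was measured on 2 two-colour Agilent arrays. The authors deposited scanner files with spot intensity values. Agilent Feature Extraction (version 10.7.3.1 per the labels' processing notes, 12.2.0.7 in the headers) had subtracted the background, removed spatial trends and balanced the dyes within each array. The deposited log10 ratios run red over green and served only to check the direction. The authors also deposited a series table with a score for every probe. By its values this is a signed fold change, cyclopamine against control, kept to 1 decimal. Spot flags are deposited software output.

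Control spots and outlier spots (2.89% and 3.15% of spots) were dropped, and none was saturated. Spots of a probe, up to 4, were averaged as log2 values and turned to cyclopamine over control. Probes numbered 39429. Each gene was read through its brightest probe over the 4 channels. Members were matched by the array's gene name, and other genes by accession through RefSeq. Positions of probes come from the array annotation (mm9), which names no exon or UTR. A gene counted as measured where a share of spots of 0.5 or more was well above background with control RNA on both arrays or with cyclopamine RNA on both. Control signals were well above background in 69.65% of spots on replicate 1 and 65.1% on replicate 2, and precision is limited by the number of arrays. Members were counted at 1.5-fold on each array, with no p-value. The fit across all 25975 measured probes used lmFit and eBayes of limma 3.58.1 under R 4.3.3, with +1 and -1 for the dyes, no intercept, and a Benjamini-Hochberg limit of 0.05. Its prior had 51.9 degrees of freedom, and the step was tested on simulated data. Pairing by replicate number is built into the ratio of each array. Levels scaled to the 75th percentile of the channel were compared only within a probe or as a sum over fixed probes. Tables were made in Python 3.11.15 with pandas 2.3.3.

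The members, the lists and the genes named were chosen with earlier results of these data known. Given in full were members past 1.5-fold on both arrays in the same or opposite directions, members past it on the mean, and members whose probes differ in sign, and from each other list the genes called and the 3 largest by the mean. The sequences shown were chosen after their matches were seen. The alternatives are described with their effect at the end.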

Additional observations from a re-analysis of the deposited data

Results flagged for a closer look

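In 5 members the pools of the 2 sexes moved in opposite directions by at least 1.5-fold. With 1 array a sex this difference was not tested, and sex, dye orientation and pool cannot be told apart. The log2 ratio of replicate 1 (female) minus that of replicate 2 (male) was 2.66 for Cxcl9, 1.29 for Ccl5, -1.99 for Il6, -1.62 for Il11 and -2.49 for Csf2.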

How the results depend on the processing

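The count of members higher by at least 1.5-fold on both arrays ran from 2 (2-fold limit, and control intensity over 100 on both arrays) to 8 (gene length trend removed, a setting chosen after seeing the data), against 4 as reported. Cxcl5 was in each of these counts, and Ccl11 was the only member lower in each setting with both arrays. Over the whole array, 18 genes were higher at 2-fold, 29 with the intensity limit and 87 with the length trend removed, against 104 as reported. Members past the limit in opposite directions numbered 3 with normexp and 1 at 2-fold, against 5 as reported. Over the whole array these settings gave 15 and 4 such genes. The median log2 ratio of the members was 0.28 with the length trend removed and otherwise 0.15 to 0.18 with both arrays. Replicate 1 alone gave 6 members higher and 4 lower, beside 1644 and 1957 genes over the whole array. Replicate 2 alone gave 14 members higher and 3 lower, beside 404 and 591 genes. The medians of the members were 0.23 and 0.19. Genes of the whole array changed on both numbered 296 as reported, 122 with normexp, 115 with the intensity limit, 56 at 2-fold and 995 to 3601 on each array alone. limma called 318 probes (37.1% of them higher), 54 with normexp (22.2% higher), 493 with the length trend removed, and 0 with the series table values or with no replicate block (the 4 channels as separate samples), where 1869 and 565 passed an unadjusted p under 0.05. Receptor and leukocyte marker calls, 1 each, became 0 with normexp, the series table values and the 4 channels, and the receptor call also with an intensity trend. The causes were not tested. The dimmest measured members on replicate 2, Cxcl13, Il1a, Csf3, Lif and Csf2, had control intensities of 22.1 to 30.5 there.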
